A study of Mus musculus with 8 samples.

Results

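The subject is the set of chromatin sites that had no called ATAC-seq peak before Ikaros induction but a peak in every library from 30 min onwards. ATAC-seq cuts open chromatin with the Tn5 transposase and reads where it cut. Overlapping peaks of the 8 peak lists were merged into 174718 regions, and 3844 of these, 2.2%, were chosen by peak presence: a peak in neither list at 0 h and a peak in all 6 lists of 30 min, 1 h and 2 h. They are called early-opened regions here. The cells were B3, a line of mouse pre-B cells that had received Ikaros-ERt2 by transduction, the transcription factor Ikaros (IKZF1) joined to a modified estrogen receptor part, which enters the nucleus once 4-hydroxytamoxifen (4-OHT) is added. All 4 groups carried the fusion, and each had 2 libraries: 0 h (no treatment) and 30 min, 1 h and 2 h of 500 nM 4-OHT. The 0 h cells are listed as untreated, with no solvent control, so an effect of the drug or solvent cannot be told apart from one of nuclear Ikaros. Peak lists hold no expression, so the cell type was not checked against marker genes. B3 is a single line, and the labels do not say that replicates were separate cultures, so p-values below measure only the spread between these libraries.

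Ikaros is a zinc finger protein of the lymphoid lineage that binds short DNA words with a GGAA or GGGA core and is best known in pre-B cells for partnering with chromatin remodelling and deacetylase complexes. Pre-B cells are precursors that have rearranged the immunoglobulin heavy chain and must stop dividing and rearrange a light chain to mature. Sites that gain accessibility are often enhancers, stretches of DNA away from genes at which transcription factors such as E proteins, RUNX, forkhead and EBF proteins bind. An ATAC-seq peak shows that a site is accessible, and does not show which protein is there or which gene it acts on.

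To show what such sites look like, the 200 bases around the summit are given for 5 early-opened regions that were among the 10 strongest or the strongest near genes of the lists used below, on the plus strand of GRCm38. They are chr15:85408774-85408973 in an intron of Atxn10, chr16:38118474-38118673 in an intron of Gsk3b, chr4:32351298-32351497 in an intron of Bach2, chr10:75942713-75942912 beside the start of Vpreb3, and chr6:134945671-134945870 in an intron of the non-coding gene Lockd, nearest to Cdkn1b. Capitals mark the Ikaros core (GGAA or GGGA, or TTCC or TCCC on the other strand) and the E-box CANNTG.
Atxn10: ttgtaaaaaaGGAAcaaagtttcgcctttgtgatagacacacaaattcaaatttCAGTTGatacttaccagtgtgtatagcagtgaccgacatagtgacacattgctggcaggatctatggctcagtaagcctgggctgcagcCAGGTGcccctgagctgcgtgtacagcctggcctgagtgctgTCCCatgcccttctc
Gsk3b: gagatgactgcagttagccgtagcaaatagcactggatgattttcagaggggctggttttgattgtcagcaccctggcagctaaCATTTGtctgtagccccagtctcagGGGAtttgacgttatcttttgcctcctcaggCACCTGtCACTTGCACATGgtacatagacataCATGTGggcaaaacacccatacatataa
Bach2: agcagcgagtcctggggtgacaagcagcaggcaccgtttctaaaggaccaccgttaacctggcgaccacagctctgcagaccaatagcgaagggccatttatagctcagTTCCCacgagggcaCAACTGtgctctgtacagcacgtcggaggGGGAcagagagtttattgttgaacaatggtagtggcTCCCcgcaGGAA
Vpreb3: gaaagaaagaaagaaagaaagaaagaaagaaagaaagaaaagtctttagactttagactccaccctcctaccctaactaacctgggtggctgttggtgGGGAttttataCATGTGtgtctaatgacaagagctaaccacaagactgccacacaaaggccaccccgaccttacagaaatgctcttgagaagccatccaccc
Cdkn1b: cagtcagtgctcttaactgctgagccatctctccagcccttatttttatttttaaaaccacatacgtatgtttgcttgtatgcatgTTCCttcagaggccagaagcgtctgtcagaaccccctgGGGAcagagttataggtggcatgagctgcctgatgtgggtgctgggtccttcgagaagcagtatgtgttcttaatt
The Gsk3b window held 5 E-boxes and 1 Ikaros core, the Bach2 window 1 E-box and 5 cores, and the Cdkn1b window 2 cores and no E-box. The Vpreb3 window opens with a simple repeat.

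The lists held between 85903 and 103897 peaks. The fold in each list is fragments at the summit over local background, and with the listed p-value it gave back whole fragment numbers for 100% of peaks in every list. The genome-wide background was lowest in 0 h replicate 2, at 0.26 fragments per base, against 0.305 to 0.405 in the other 7 libraries, and the smallest called peaks held 3 or 4 fragments. Fragments below are not scaled to depth and do not count the local background, so they need not rank libraries or sites as the percentile of fold does. A site without a 0 h peak had too few fragments to be called there, which is not a measure of 0 accessibility. Among sites called in all 6 treated lists, 5967 also had a peak in 1 of the 2 lists at 0 h, in 4190 of them replicate 1 alone. With 0 h replicate 2 as the only 0 h library, the rule would have chosen 8073 regions.

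Just inside and outside the rule, strength changed by degrees. Strength is given as the percentile of a peak's fold among all peaks of its own list. Early-opened regions averaged the 33.8 percentile at 30 min, 45.2 at 1 h and 49.4 at 2 h. The 4393 regions with no 0 h peak that missed 1 of the 6 treated lists averaged 25.3, 34.2 and 38.3, and 1973 of these missed only 30 min replicate 2. The 5967 regions with a peak in 1 list at 0 h averaged 42.2, 49.2 and 51.9, and had averaged 27.5 in the 0 h list that held them. At each time the replicate with the lower background was the one missed more often.

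Early-opened regions were weak at first and of middling strength later. Their median percentile was 36.7 in 30 min replicate 1 and 31.0 in replicate 2, then 48.8 and 43.8 for 1 h and 51.3 and 49.4 for 2 h. Both libraries of 1 h and of 2 h lay above both of 30 min, and the 1 h and 2 h ranges did not overlap either. The mean over regions was 33.8 ± 3.18 (SD, n = 2 libraries) at 30 min, 45.2 ± 3.27 at 1 h and 49.4 ± 1.05 at 2 h. Median fragments at the summit were 10 and 8 at 30 min, then 12 and 11 at 1 h, then 13 and 12 at 2 h. Relative to the library's background that was 24.7 and 26.2 times at 30 min, then 32.8 and 35.3 times at 1 h, then 38.6 and 37.9 times at 2 h. At 2 h, 11.6% and 10.0% of the early-opened regions stood above the 75th percentile of the lists, against 0.989% and 0.520% at 30 min. None stood above the 90th percentile at 30 min, while 38 and 32 did at 2 h. Where all 8 lists had a peak (47875 regions), the mean percentile was 70.2 ± 2.53 at 30 min, 70.5 ± 1.95 at 1 h and 70.04 ± 0.918 at 2 h.

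**Figure D1:**
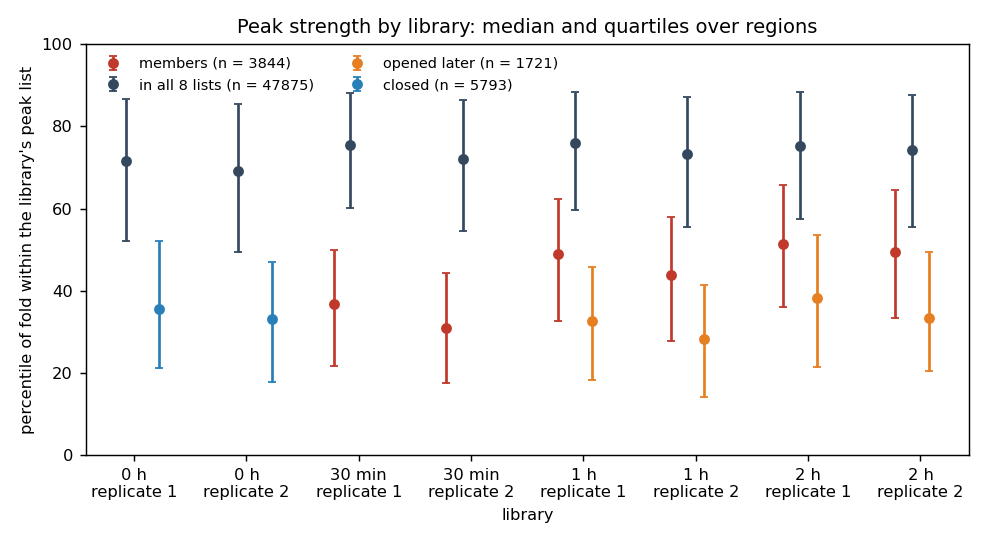
Peak strength in each of the 8 libraries, as the percentile of fold within the library's list. Points are medians over regions and bars reach the quartiles, for early-opened regions (members), regions with a peak in all 8 lists, regions opened later (no peak at 0 h or 30 min, peaks in all 4 later lists) and closed regions (both 0 h lists, no treated list); the members' medians run from 31.0 at 30 min to 51.3 at 2 h.

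The step from 30 min to 2 h uses no 0 h library, and the peaks in all 6 treated lists that the rule asked for were asked of every tested region. It was tested with limma on normal scores of the fold ranks across all 57686 regions called in each of the 6 treated lists. The lack of a 0 h peak, however, was asked of early-opened regions alone, and 47875 tested regions had a peak in both 0 h lists. At 30 min the early-opened regions averaged the 15.9 percentile of the tested regions. The contrasts with all tested regions, here and at 1 h, are thus not independent of the rule. The change was above 0 in 2960 early-opened regions, 77.0%, against 49.5% of all tested regions, and its median was 0.48 score units against -0.01 over all tested. At an unadjusted limma p under 0.05, 1082 early-opened regions (28.1%) were higher at 2 h and 80 (2.08%) lower, where the shares over all tested regions were 8.37% and 8.76%. Both 2 h libraries lay above both 30 min libraries in 1821 (47.4%) and below in 257 (6.69%), against 23.6% and 25.5% of all tested. In either direction no early-opened region passed an adjusted p under 0.05, as no tested region did (0% and 0%); the lowest adjusted p was 0.0847, shared by 31 early-opened regions. With a mean trend and a robust prior, limma called 144 early-opened regions higher (3.75%) and 1 lower (0.026%). Of all tested regions it called 1.01% and 0.823%. On fragments over background, centred per library, it called 228 early-opened regions higher (5.93%) and 1 lower (0.026%), against 1.06% and 1.27%. The count of calls thus differed between these settings, in each of which more early-opened regions were higher than lower at an unadjusted p under 0.05.

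At 1 h against 30 min the median change was smaller, and the difference between the 2 steps was not tested. These comparisons share the 30 min libraries. The change was above 0 in 2735 early-opened regions (71.1%) against 49.3% of all tested, with a median of 0.32. At an unadjusted limma p under 0.05, 731 (19.0%) were higher and 84 (2.19%) lower, against 5.72% and 5.41%. Both 1 h libraries lay above both 30 min libraries in 1394 early-opened regions (36.3%) and below in 315 (8.19%). The shares of all tested regions were 20.6% and 22.5%. None passed the adjusted p, as over all tested regions (0% each way), and the mean trend setting called 2 early-opened regions higher, of 5 among all 57686.

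To compare regions of like strength, they were binned by their mean percentile over the 6 treated lists. Between the 40th and 50th percentile, the median change from 30 min to 2 h was 0.52 in 945 early-opened regions, 0.19 in 1423 regions with a peak in 1 list at 0 h, and -0.20 in 4312 regions with a peak in all 8. Between the 60th and 70th percentile it was 0.78 in 363 early-opened regions, 0.39 in 856 and -0.06 in 7398. The order was the same in each of the 7 strength bins. The classes were set apart by their 0 h peaks, so the order between them is not independent of the rule. The change was larger among early-opened regions of higher mean percentile, but that mean includes the 2 h values that enter the change. At 30 min the 95th percentile of the early-opened regions was 65.7 and 61.6, so few could average above 70 without a rise. The trend with strength is thus partly built in by the binning. Above the 70th percentile, 97.7% of 130 had a change above 0 and 60.8% were higher at an unadjusted limma p under 0.05, while under the 20th percentile the shares were 60.8% and 15.2% of 204.

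**Figure D2:**
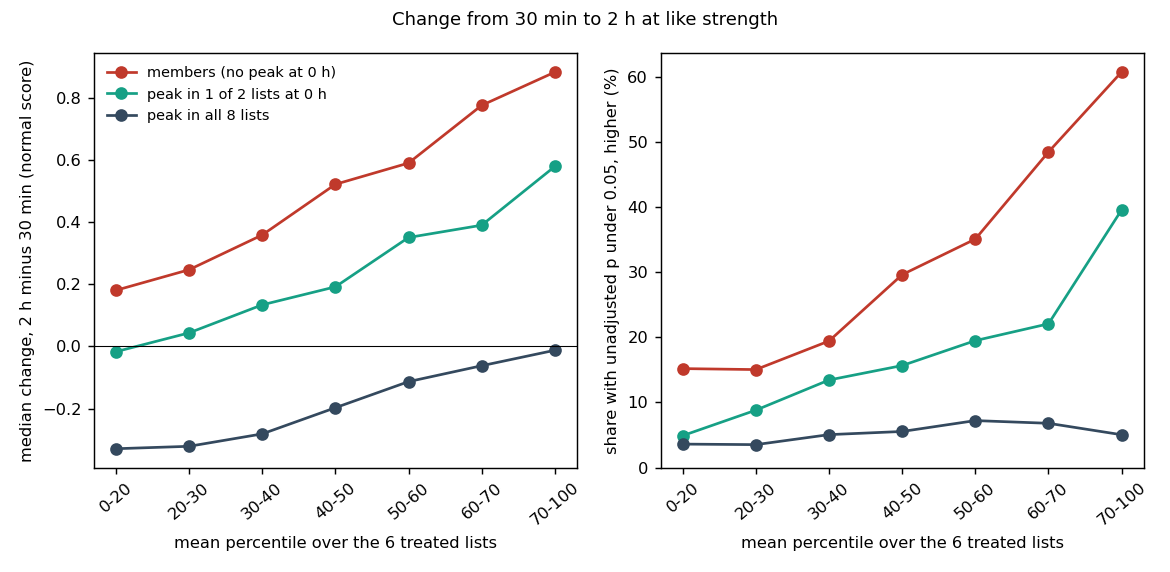
Change from 30 min to 2 h (left, median in normal score units) and share of regions higher at an unadjusted limma p under 0.05 (right, percent), by mean percentile over the 6 treated lists, for early-opened regions (members), regions with a peak in 1 list at 0 h and regions in all 8 lists. Each point is one strength bin, and the mean percentile that sets the bins includes the 2 h values. The members lie highest in every bin, from 0.18 to 0.88 on the left. The classes differ by definition in their 0 h peaks, so their order is not independent of the rule.

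Early-opened regions were mostly away from genes' start sites. A start site of any transcript lay within 1 kb of 488 of them (12.7%), so 3356 (87.3%, exact 95% interval 86.2% to 88.3%, counting error only) were distal. Of the distal ones, introns held the summit of 1889 (49.1% of all 3844), intergenic DNA of 1332 (34.7%), coding exons of 41 (1.07%) and other exons of 94 (2.45%). Promoter regions made up 29.8% of regions in all 8 lists, 17.7% of all merged regions, 11.7% of the 5793 closed regions and 9.70% of the 1721 regions opened later. Promoters were more common among the weaker early-opened regions, 18.3% of the weakest 961 against 9.68% of the strongest 961. The median distance from summit to the nearest protein-coding start site was 19263.5 bp, against 20827.5 bp for all merged regions. Over 100 kb away were 557 (14.5%), against 16.5% of all merged regions.

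**Figure D3:**
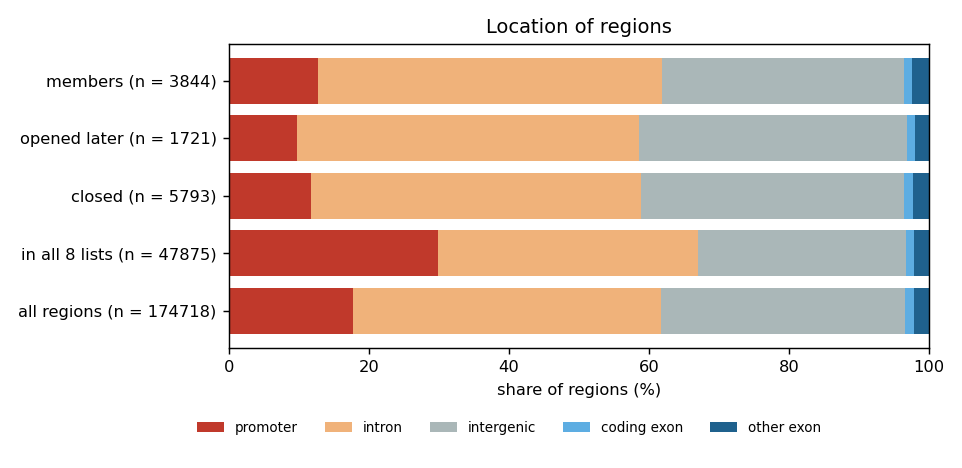
Share of regions (percent) whose region lay within 1 kb of a start site (promoter) or, if not, whose summit fell in an intron, intergenic DNA, a coding exon or another exon. Bars add to 100 for early-opened regions (members), regions opened later, closed regions, regions in all 8 lists and all regions; promoters take 12.7% of members and 29.8% of regions in all 8 lists.

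Early-opened regions lay in length between the other sets. Their median length was 176 bp (quartiles 140 and 223), against 230 bp for regions in all 8 lists, 153 bp for regions opened later and for closed regions, and 130 bp for all merged regions. The summits of the 6 lists lay within 100 bp of one another in 3348 (87.1%) and within 50 bp in 1729 (45.0%), with a median spread of 54 bp. The nearest 0 h peak was within 500 bp for 856 (22.3%) and within 5 kb for 2580 (67.1%). Another early-opened region lay within 10 kb of 366 (9.52%), against 7.74% of all merged regions and 9.26% of regions in all 8 lists. A closed region lay within 10 kb of 489 (12.7%), against 10.5% of all merged regions. Every chromosome but Y held some, from 55 on X to 290 on chromosome 2.

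The DNA around the summits held fewer Ikaros core words per length than that of the other sets, save regions opened later. In the 200 bases around the summit, GGAA or GGGA on either strand was present in 3593 early-opened regions (93.5%), 96.7% of all merged regions, 97.8% of regions in all 8 lists, 90.5% of regions opened later and 99.9% of closed regions. A word this short is found in most windows, and the density separated the sets more: 1.46 ± 0.939 words per 100 bp (SD over regions) in early-opened regions, 2.05 ± 1.21 over all and 3.28 ± 1.26 in closed regions. GGAA or TTCC alone was present in 76.5% of early-opened, 86.9% of all and 98.6% of closed regions. These letters also lie within ETS, STAT and EBF sites, and GGGAA counts as both cores. Over the whole region, which had a median length of 176 bp against 130 bp for all merged regions, the share with a core word was 89.3% of early-opened against 87.6% of all, whereas the density was again lower, 1.43 against 2.07 words per 100 bp. In 251 early-opened regions no core word was found, which says only that the letters are not in this window.

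Words for E proteins, octamer factors and forkhead proteins were more frequent in early-opened regions than over all regions. The E-box CANNTG was present in 78.1% of early-opened regions against 72.8% of all, and its E2A-type forms CAGCTG and CAGGTG (both strands, a subset of the E-box) in 38.0% against 31.6%. E2A is the E protein that drives B-cell commitment. The octamer ATGCAAAT, the word read by POU factors such as Oct2, was present in 185 early-opened regions (4.81%) against 2.22% of all, 1.59% of regions in all 8 lists and 1.26% of closed regions. The forkhead word TGTTTAC was present in 148 (3.85%) against 2.61% of all and 1.42% of closed regions. RUNX (TGTGGT) was present in 29.3% against 26.0%, KLF (CACCC) in 47.2% against 43.0%, AP-1 (TGANTCA) in 9.18% against 8.19%, and EBF (CCCNNGGG) in 14.3% against 12.02%, all counted on both strands. The RUNX and EBF words were still more common in closed regions, at 32.3% and 20.8%. STAT (TTCNNNGAA) was present in 3.28% against 4.91%, the interferon factor word (GAAA, any 2 bases, GAAA) in 2.06% against 2.60%, and the CTCF word in 2.13% against 4.41% of all and 9.06% of regions in all 8 lists. The estrogen response element (GGTCA, any 3 bases, TGACC) was present in 1 early-opened region.

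Regions opened later held an E-box in 79.5%, an E2A-type word in 42.5%, an octamer in 5.11% and a forkhead word in 5.87%. Within the early-opened regions, the strongest 961 held an E2A-type word in 40.4% and RUNX in 34.3%, and the weakest 961 in 35.4% and 27.3%. Core words ran from 1.58 per 100 bp in the weakest 961 to 1.31 in the strongest 961.

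Repeats and base composition moved with some of these words. Mean GC content was 49.3% in early-opened windows, 50.1% over all regions and 52.8% in regions in all 8 lists. Over 50% of the window was soft-masked repeat in 759 early-opened regions (19.7%), against 15.3% of all, 24.7% of regions opened later and 5.47% of closed regions. Of the 185 windows with an octamer, 85 were mostly repeat. Over regions away from both start sites and repeats, the octamer was present in 3.21% of early-opened regions against 1.86% of all, the E2A-type word in 42.2% against 34.4%, the forkhead word in 3.77% against 2.67%, and GGAA or TTCC in 77.7% against 88.0%. The part of base composition in these differences was not tested.

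**Figure D4:**
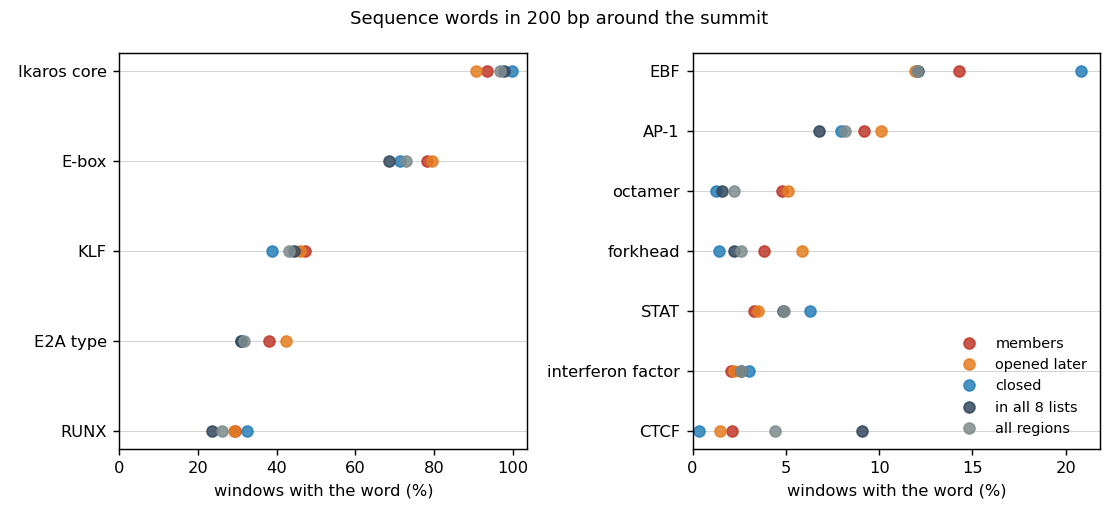
Share of 200 bp windows (percent) holding each sequence word on either strand, for early-opened regions (members), regions opened later, closed regions, regions in all 8 lists and all regions. The Ikaros core is lower in members (93.5%) than in closed regions (99.9%), and the octamer higher (4.81% against 1.26%).

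The 10 strongest early-opened regions averaged between the 82.8 and 89.7 percentile, and 9 of them were distal to any coding start by more than 4 kb. The first, in an intron of Atxn10, stood at the 82.0 and 81.5 percentile at 30 min, then 91.2 and 96.6 at 1 h, then 93.5 and 93.2 at 2 h, with 31 and 28 fragments at 30 min and 57 and 47 at 2 h. The groups of 30 min and 2 h did not overlap, yet limma gave a change of 0.65 ± 0.29 (SE) and an adjusted p of 0.2997. The Gsk3b region stood at 73.8 and 78.9, then 91.2 and 92.7, then 95.5 and 96.5. Gsk3b encodes a kinase that restrains Myc, cyclin D and beta-catenin. Its fragments went from 17 and 17 to 31 and 31 and to 39 and 39, and the change at 2 h was 1.18 ± 0.27 (limma adjusted p = 0.113). The Dusp1 region stood at 71.7 and 78.3, then 84.7 and 85.1, then 94.6 and 90.3, so no 2 groups overlapped. Dusp1 encodes a phosphatase that switches off MAP kinases. The other 7 were nearest to Cldn11, Slc16a1, Cenpl, Gm21818, Timm8a2, Mtx3 and Traf5, with changes at 2 h from 0.47 to 1.02 and adjusted limma p from 0.148 to 0.399. Slc16a1 encodes a lactate transporter and Traf5 an adaptor of TNF receptors. The Gm21818 window was 97.0% repeat. Some of the 10 lay close to sites already called before treatment. The nearest 0 h peak was 349 bp from the Atxn10 region, 123 bp from the Cldn11 region and 119 bp from the Slc16a1 region. For the rest of the 10 it was 975 bp (Dusp1) to 16205 bp (Timm8a2) away.

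**Figure D5:**
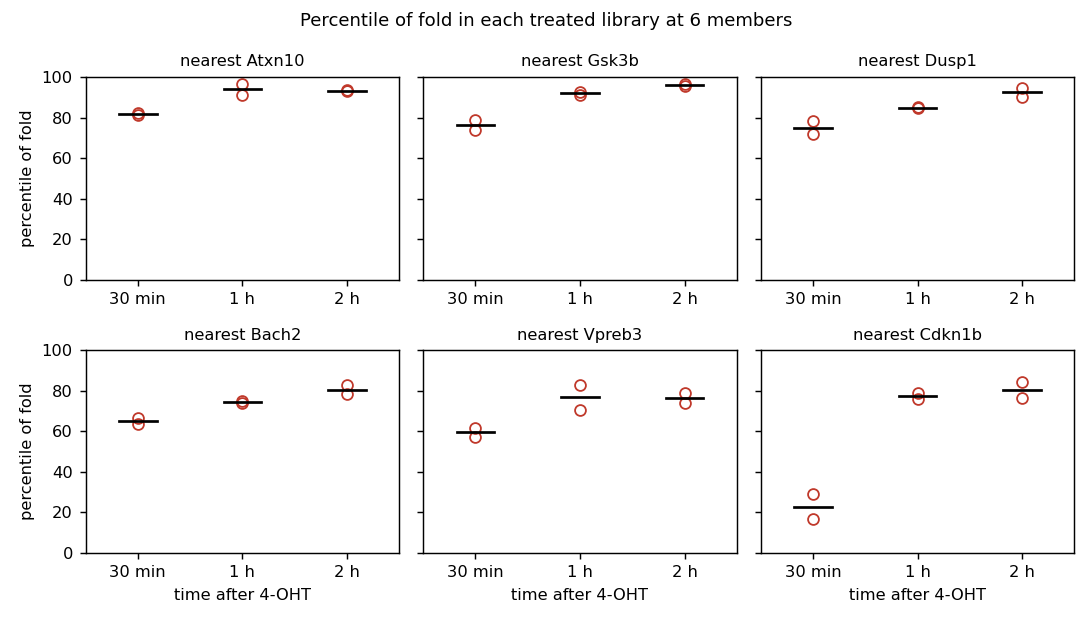
Percentile of fold in each of the 6 treated libraries (circles) with the group mean (line) at 6 early-opened regions, named by the nearest protein-coding gene. The Cdkn1b region moves from 28.8 and 16.5 at 30 min to 84.6 and 76.4 at 2 h, and the Atxn10 region from 82.0 and 81.5 to 93.5 and 93.2.

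The largest rises from 30 min to 2 h started at 4 to 6 fragments, and none passed the adjusted p in limma on normal scores. An intron of Zfhx3 (chr8:108820734-108820855) went from 4 and 5 fragments at 30 min to 17 and 21 at 2 h, with 10 and 7 between (change 2.77 ± 0.38, limma adjusted p = 0.0847). An intergenic region nearest to 1700017B05Rik (chr9:57326052-57326394) went from 4 and 5 to 24 and 22, and had 15 and 14 at 1 h. A region in an intron of Sppl3, nearest to Gm10401 (chr5:115092368-115092733), went from 5 and 5 to 30 and 27. The largest rises at 1 h, beside that of 1700017B05Rik, were in introns of Ryk (chr9:102884809-102884971), from 6 and 4 fragments to 16 and 17, and of Mgat5 (chr1:127302688-127303052), from 5 and 5 to 17 and 18. At 2 h there were 21 and 19 at Ryk and 22 and 22 at Mgat5. Ryk is a Wnt receptor, and Mgat5 a glycosyltransferase that branches N-glycans on lymphocyte receptors. In these 5 regions the 30 min libraries did not overlap those of 1 h or 2 h, and all 5 were called at 2 h with the mean trend and with centred fragments.

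The rule asked for a peak in every 1 h and 2 h list, so a region that fell below calling was left out. A change above 0 at 2 h was found in 77.0% of early-opened regions. At an unadjusted limma p under 0.05, 80 (2.08%) were lower, against 8.76% of all tested regions. The same peaks were asked of all tested regions, but early-opened regions averaged only the 15.9 percentile of these at 30 min. The contrast is thus not independent of the rule. The falls named here ended at 4 to 8 fragments in the comparison for which each was named. The largest, 763947 bp from the start of Cdh9, an adhesion gene (chr15:15964643-15964899), had 17 and 19 fragments at 30 min, then 7 and 8 at 1 h, then 7 and 6 at 2 h (change at 2 h -2.21 ± 0.32, limma adjusted p = 0.0847), and it was the fall called with the mean trend and with centred fragments. A region in an exon of Inhbe had 9 and 8, then 7 and 7, then 6 and 5, and one nearest to Rab4a had 14 and 9, then 9 and 7, then 7 and 4. At 1 h the next largest falls were in an intron of Sorcs2, from 9 and 7 fragments to 4 and 5, and nearest to Idnk, from 14 and 14 to 8 and 8. The nearest 0 h peak lay 372 bp from the Cdh9 region and 509 bp from the Sorcs2 region.

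Near promoters, the strongest early-opened regions stood at Hip1r, 1700024G13Rik, Gzma, Dap and Vpreb3. The Hip1r region (chr5:123974613-123974833) was at the 55.5 and 67.4 percentile at 30 min, then 81.5 and 80.8 at 1 h, then 86.0 and 82.0 at 2 h. Gzma encodes granzyme A, a protease of cytotoxic cells; its region had 16 and 8 fragments at 30 min and 31 and 27 at 2 h. Dap had 19 and 28, then 43 and 37, then 34 and 30 fragments. Vpreb3, which encodes a chaperone-like partner of immunoglobulin light chains in B-cell precursors, had 20 and 19, then 33 and 25, then 25 and 28. At all 5, both 2 h libraries stood above both of 30 min in percentile.

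The nearest genes were taken as the closest protein-coding start site within 100 kb. That gave 3287 early-opened regions a gene, 2713 genes in all, or 12.4% of 21932; 2251 of these genes had 1 region, 374 had 2 and 71 had 3. Genes differ in how many regions lie near them, so each gene list is also read against its share of nearby regions. Over all genes 2.25% of nearby regions were early-opened. The changes in each list are to be read beside those of all early-opened regions, of which 77.0% had a change above 0 at 2 h, 28.1% were higher and 2.08% lower at an unadjusted limma p under 0.05. The largest numbers, found after the values were seen, were 7 of 211 regions at Pde4d and 6 of 127 at Foxp1.

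B-lineage transcription factors had early-opened regions at 17 of 28 genes. The list covers the factors that start and hold B-cell identity. These were 26 of the 852 regions near its genes (3.05%), while 39 (4.58%) were closed regions, against 3.22% closed over all genes. In the other lists the closed share ran from 0% (recombination and light chain, 46 regions) to 5.26% (Notch and T lineage). Of the 26, 24 had a change above 0 at 2 h, 7 were higher and 1 lower at an unadjusted limma p under 0.05, and none passed adjustment. The lower one was nearest to Fli1 (change -1.24), named after its value was seen. Bach2, a repressor that holds back plasma cell fate, had 3; the strongest stood at 63.8 and 66.8 at 30 min, then 75.1 and 73.9 at 1 h, then 78.4 and 82.7 at 2 h. Tcf4, an E protein, also had 3, and the strongest went from 9 and 12 fragments to 20 and 20 at 1 h and 22 and 11 at 2 h, where the replicates overlapped those of 30 min. Ets1 had 3, led by one of 12 and 7, then 18 and 19, then 29 and 15 fragments. Ebf1, Erg and Pou2f2 had 2 each, and Foxo1, Irf4, Irf8, Bcl11a, Lef1, Runx1, Runx2, Myb, Id3, Mef2c and Fli1 had 1.

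Genes of the pre-B cell receptor and its signalling had early-opened regions at 7 of 24, with 8 of 367 nearby regions (2.18%). All 8 had a change above 0 at 2 h, and 2 were higher at an unadjusted limma p under 0.05. In an intron of Blk (chr14:63388990-63389322), a Src family kinase downstream of the receptor, fragments went from 11 and 9 to 19 and 13 and to 29 and 26 (change at 2 h 1.32 ± 0.29, limma adjusted p = 0.105). At Bank1, an adaptor of B-cell receptor signalling, there were 10 and 8, then 8 and 5, then 11 and 9 fragments. In percentile its 1 h libraries, at 39.9 and 11.0, lay below those of 30 min, at 53.8 and 42.7, while the 2 h libraries, at 58.5 and 49.4, overlapped 30 min. Among the 8 genes of recombination and the light chain, only Igkc, the kappa constant region, had one, 17700 bp from its start, with 15 and 9, then 9 and 11, then 13 and 16 fragments. The 2 h libraries lay above those of 1 h, and 30 min overlapped both.

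FoxO targets and genes that restrain growth had early-opened regions at 10 of 22, with 15 of 398 nearby regions (3.77%), the highest share of the 11 lists, none of which was tested as a list. Of the 15, 14 had a change above 0 at 2 h and 6 were higher at an unadjusted limma p under 0.05. The region nearest to Cdkn1b, which encodes the cell cycle inhibitor p27, had 8 and 6 fragments at 30 min, then 21 and 20 at 1 h, then 28 and 22 at 2 h (change at 2 h 1.96 ± 0.27, limma adjusted p = 0.0847). It lies inside Lockd, a non-coding gene downstream of Cdkn1b, and 2 further early-opened regions shared Cdkn1b as nearest gene. Sesn1, a stress-induced inhibitor of mTORC1, had 9 and 8, then 14 and 10, then 11 and 18 fragments. Txnip, Pik3ip1, Foxo3, S1pr1, Il7r and Sesn3 had 1 or 2 each.

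Immediate early and AP-1 genes had early-opened regions at 7 of 20, with 11 of 361 nearby regions (3.05%), of which 9 had a change above 0 and 5 were higher and none lower at an unadjusted limma p under 0.05 for 2 h. Besides the Dusp1 region above, one 81792 bp from Jun, inside Junos (chr4:95133917-95134083), had 7 and 6, then 16 and 9, then 20 and 16 fragments (change at 2 h 1.76 ± 0.34, limma adjusted p = 0.0993). The Dusp1 promoter region, 272 bp from the nearest 0 h peak, had 24 and 12, then 31 and 23, then 19 and 20 fragments. In percentile the 1 h libraries, at 68.1 and 58.6, lay above those of 30 min, at 57.0 and 16.4, and of 2 h, at 42.5 and 52.2, which overlapped each other.

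Sterol synthesis genes had early-opened regions at 6 of 21, with 6 of 235 nearby regions (2.55%), of which 4 had a change above 0 at 2 h, 2 higher and 1 lower at an unadjusted limma p under 0.05. An intron of Srebf1, a regulator of lipid synthesis, went from 18 and 10 fragments to 34 and 26 at 2 h. At Srebf2, its relative for cholesterol synthesis, the region had 10 and 16, then 10 and 12, then 9 and 8. The region nearest to Sc5d, an enzyme of a late step, had 8 and 6, then 7 and 8, then 15 and 10.

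Adhesion and homing genes had early-opened regions at 8 of 20, with 11 of 310 nearby regions (3.55%), 10 of them with a change above 0 at 2 h and 2 higher at an unadjusted limma p under 0.05. At Itgal, the integrin chain of LFA-1, fragments were 16 and 7, then 12 and 13, then 15 and 16. At Cxcr5, a follicle-homing receptor, they were 8 and 12, then 14 and 15, then 13 and 16. At the start of Itgb7 (chr15:102231787-102232011), a gut-homing integrin chain, they were 13 and 10, then 23 and 19, then 18 and 17, with 1 h and 2 h both above 30 min.

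Antigen presentation genes had early-opened regions at 5 of 20, with 5 of 138 nearby regions (3.62%). Of the 5, 2 had a change above 0 at 2 h, with a median of -0.12, and 2 were higher and 1 lower at an unadjusted limma p under 0.05. The lower one, at H2-Eb1 and named after its value was seen, changed by -0.88, and the one at H2-Ab1 by -0.24. The promoter of Ms4a1 (chr19:11266097-11266472), which encodes CD20 of mature B cells, had 8 and 4, then 10 and 8, then 18 and 13 fragments. A region nearest to H2-Oa had 8 and 5, then 11 and 9, then 13 and 11. One nearest to Cd80 had 18 and 19, then 22 and 21, then 17 and 22.

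Lists of other lineages and of the cell cycle had shares of nearby regions from 2.08% to 2.81%. Notch and T lineage genes had early-opened regions at 6 of 22, with 8 of 285 nearby regions (2.81%), led by Tcf7 (11 and 12, then 16 and 22, then 15 and 14 fragments), Hes1 (9 and 6, then 12 and 8, then 11 and 20) and Zap70 (14 and 10, then 15 and 6, then 13 and 9). The Tcf7 region lay 459 bp from the nearest 0 h peak. Of the 8, 6 had a change above 0 at 2 h and 2 were higher at an unadjusted limma p under 0.05. Myeloid and stem genes had them at 5 of 24, with 5 of 219 (2.28%), led by Tlr4 with 7 and 6, then 10 and 10, then 8 and 13. Next was Csf1r, 258 bp from the nearest 0 h peak, with 12 and 12, then 9 and 7, then 14 and 15. Cd34 had 6 and 5, then 8 and 7, then 9 and 9. Of these 5, 3 had a change above 0 at 2 h and 1 was higher at an unadjusted limma p under 0.05. G1 cell cycle and Myc genes had them at 5 of 23, with 6 of 289 (2.08%), and all 6 had a change above 0 at 2 h, 4 of them higher at an unadjusted limma p under 0.05. Regions nearest to Rb1, the retinoblastoma gene, had 8 and 6, then 10 and 9, then 17 and 9, and to Mcm5, a subunit of the replicative helicase, 7 and 8, then 8 and 13, then 12 and 13. One nearest to E2f1 had 20 and 19, then 25 and 25, then 24 and 23.

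Few early-opened regions lay in groups. No gene had more than 5 within 50 kb of a start site. Itsn1, which encodes an endocytic scaffold, had 5 with mean percentiles from 24.3 to 76.8. The strongest lay in an intron, 19092 bp from the nearest Itsn1 start and 370 bp from the nearest 0 h peak. It had a mean percentile of 60.3 at 30 min and 83.2 at 2 h. Aanat and Ube2o shared the same 5, from 28.6 to 67.1, led by one in an intron of Rhbdf2. Fgd3 had 5, from 22.6 to 59.1, and its own intronic region had a mean percentile of 3.50 at 30 min and 27.7 at 2 h. Gm3336 had 5, from 21.1 to 49.2, nearest to Pde4c, Lsm4 and Rab3a. Of these 20 regions, 9 had an unadjusted limma p under 0.05 for 2 h against 30 min, all higher at 2 h, where 28.1% of all early-opened and 8.37% of all tested regions were higher.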

How the data were processed

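ATAC-seq peak lists of 8 libraries, 2 each at 0 h, 30 min, 1 h and 2 h, were used. The authors aligned reads with BWA 0.7.17, kept nucleosome-free fragments and called peaks per library with MACS2 2.1.2 without a control. The deposited lists give fold over local background, −log10 p-value, −log10 q-value and a summit position, so no value exists where no peak was called. The methods name a human build, but the labels give GRCm38 and every peak lies inside the GRCm38 chromosomes, which was used with GENCODE M21.

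Overlapping peaks were merged with pandas 2.3.3 in Python 3.11.15. Fragments at the summit were recovered from fold and p-value (tolerance 0.001). Ranks of fold among 57686 regions with a peak in all 6 treated lists were turned into normal scores and tested with limma 3.58.1 (group as the only term, Benjamini-Hochberg adjustment). Sequence words and gene lists were described by counts only. Intervals cover counting error only. Same-numbered libraries did not deviate together (correlations 0.015 to 0.019), so numbers were not taken as pairs.

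Named were the 10 strongest members, up to 3 per gene list, the 3 largest changes each way per comparison (none being called), the 5 strongest at promoters and the 5 genes with most members within 50 kb. Of 3 genes tied for the fifth place with the same regions, Gm3336 was taken. The members, lists and words were chosen with earlier results of these data known. Alternatives covered the peak threshold, merging, depth, promoter width, scale, spread and each library left out. Some items within the rule are not reported here.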

Additional observations from a re-analysis of the deposited data

How the results depend on the processing

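The limits are those of peak lists: 2 libraries a group, no value where no peak was called, and fewer fragments in 0 h replicate 2. Requiring −log10 q of at least 5 in treated lists left 1496 early-opened regions of 3844, and leaving out 1 library gave 4102 to 8073, with 8073 without 0 h replicate 1 and 5818 without 30 min replicate 2. The distal share of 87.3% was 86.0% at that q, 85.9% with merged summit windows, 92.3% without a 0 h peak within 500 bp, 76.8% with start sites within 2.5 kb, 90.5% with protein-coding start sites, and 81.9% to 88.0% with 1 library left out. The mean percentile at 30 min, 1 h and 2 h was 45.7, 55.6 and 59.6 at that q, and 15.9, 23.8 and 28.1 among regions in all 6 treated lists. With 1 library left out it was 29.7 to 38.5 at 30 min, 41.9 to 47.3 at 1 h and 46.7 to 50.6 at 2 h. At 2 h it was 47.2 with every list cut to the shortest and 51.5 without a 0 h peak within 500 bp. The order of the 3 times held in each of these settings.

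For 2 h against 30 min, limma called 0 early-opened regions in either direction, 144 higher and 1 lower with a mean trend and robust prior, and 228 higher and 1 lower on centred fragments. On fragments not centred, a setting chosen after seeing the data, it called 467 higher and 1 lower, with 1650 higher at an unadjusted p under 0.05 against 1082. Over all 57686 tested regions that setting called 1654 higher and 428 lower, with 9978 against 4828 higher at the unadjusted p. The median of all tested regions moved by 0.18 (log2) there. At 1 h the mean trend called 2 higher, of 5 among all tested. With a replicate block, 0 were called, and 1122 (2 h) and 752 (1 h) were higher at an unadjusted p under 0.05, of 4867 and 3297 among all tested regions. Leaving out 1 library gave 0 calls and 806 to 1122 (2 h) and 557 to 720 (1 h) higher at that unadjusted p, of 3376 to 4773 and 2447 to 3335 among all tested regions, where a group left with 1 library is assumed to vary like the others. Of 45 alternative shares of sequence words, 24 lay outside the 95% interval of the reported share, and the word shares away from start sites and repeats were also added after seeing the data. Of 440 alternative values for the 20 named regions whose change was followed, 0 had the opposite sign. These settings reuse the same libraries, so the shared sign is not independent support.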
